A study of Arabidopsis thaliana with 8 samples.

Results

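Small RNAs of 21 and 22 nt were examined over the genes of the mitochondrial genome of Arabidopsis thaliana. The members are the 122 rows of the deposited table, of 32420 in all, whose gene identifier starts with ATMG, the prefix of mitochondrion-encoded loci. No measured value entered that choice. The reference annotation ties 53 members to a copy on chromosome 2. Of these, 23 could be placed in a role group by the copy's product or by a matched RefSeq gene, and all other identifiers carry no role here. Counts by role below cover only these 23 members. Other genes of the same complexes can be among the members without a product name.

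The groups were es3, which carries ein5-1 and ski2-3, es3dd, which adds dcl4-2 and dcl2-1 to these, and Col, the wild type. es3 and es3dd had 4 libraries each, from untreated aerial parts of plants aged 20 days, which spent the first 6 days on MS medium and the other 14 in soil. Both mutants carry the ein5-1 and ski2-3 alleles, so the contrast between them is the state of DCL4 and DCL2. Col is in the deposited table as the authors' mean and comparison but has no labelled library here, so its values carry no SD. EIN5 (XRN4) is the cytoplasmic 5'-3' exoribonuclease, and SKI2 is the helicase that feeds RNA to the cytoplasmic exosome. DCL4 and DCL2 are the Dicer enzymes that cut double-stranded RNA into 21-nt and 22-nt siRNAs. Whole aerial parts were used, so fewer cells of a type and less RNA per cell cannot be told apart.

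The plant mitochondrial genome encodes a part of the respiratory chain and of ATP synthase, proteins that attach haem to c-type cytochromes, and some ribosomal proteins, while most mitochondrial proteins come from nuclear genes. Its transcripts are made and turned over inside the organelle, whereas EIN5, SKI2 and the Dicers are known for work on nuclear and cytoplasmic RNA. In Arabidopsis a long piece of mitochondrial DNA also lies near the centromere of chromosome 2, so a short read may match both genomes.

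How far a 21-nt read could be assigned was read from the RefSeq genome (TAIR10.1). Of 367808 21-base words in the mitochondrial genome, 72.4% occurred exactly on chromosome 2, 2.89% on chromosomes 1, 3, 4 and 5 and 0.637% in the plastid genome. The annotation gave 55 copies of the 53 members, all on chromosome 2, and 28 of the copies held no 21-base word that was absent from the mitochondrial genome. How the authors assigned reads that match several places is not given in the sources used here. A member's value can therefore include reads of its copy, and the part of this sharing in the results was not tested.

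The following windows were chosen from the copies of members that changed, as examples of how few bases can tell the genomes apart. They do not stand for the whole genomes. The first is from the copy of ATMG00280, a frame that resembles the large subunit of Rubisco, the enzyme that fixes carbon dioxide in the plastid. This copy, AT2G07732, lies at chr2:3468160-3468899 on the minus strand. Of its 21-base words, 94.2% are in the mitochondrial genome and 45.6% in the plastid genome. The window of 120 bases covers chr2:3468210-3468329 (minus strand), positions 165392 to 165511 of the mitochondrial genome (plus strand) and positions 55912 to 56031 of the plastid genome (plus strand), inside the coding sequence of rbcL. All sequences are from RefSeq TAIR10.1, 5′ to 3′, and capitals mark the bases at which they differ. Of the 100 words of 21 bases in this window, 76 contain no differing base.
mitochondrial genome: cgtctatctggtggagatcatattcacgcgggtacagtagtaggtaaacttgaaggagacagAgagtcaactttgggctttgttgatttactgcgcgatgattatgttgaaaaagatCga
copy on chromosome 2: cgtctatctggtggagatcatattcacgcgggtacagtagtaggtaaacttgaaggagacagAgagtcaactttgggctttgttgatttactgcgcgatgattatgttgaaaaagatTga
plastid rbcL: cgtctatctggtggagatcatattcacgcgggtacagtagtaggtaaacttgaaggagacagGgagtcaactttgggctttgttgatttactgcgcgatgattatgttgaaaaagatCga

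The second window is from ATMG00560, matched through its copy AT2G07715 (chr2:3410597-3413161, plus strand) to the RefSeq gene rpl2, for a ribosomal protein, the 1 member with a role group that rose at 22 nt. It covers 90 bases of chr2:3411667-3411756 and of positions 222034 to 222123 of the mitochondrial genome (minus strand), inside the coding sequence of rpl2. Of its 70 words of 21 bases, 48 contain no differing base.
mitochondrial rpl2: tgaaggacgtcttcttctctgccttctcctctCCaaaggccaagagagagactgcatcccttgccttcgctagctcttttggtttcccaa
copy on chromosome 2: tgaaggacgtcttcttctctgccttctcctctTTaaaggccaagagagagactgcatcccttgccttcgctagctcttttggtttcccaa

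The third window is from AT2G07785 (chr2:3348003-3348904, plus strand), the copy through which ATMG01275 is named NADH dehydrogenase 1A. ATMG01275 was lower in es3 than in es3dd in both size classes. The window covers 90 bases of chr2:3348463-3348552 and of positions 82793 to 82882 of the mitochondrial genome (minus strand), where RefSeq annotates no gene. Of its 70 words of 21 bases, 49 contain no differing base.
mitochondrial genome: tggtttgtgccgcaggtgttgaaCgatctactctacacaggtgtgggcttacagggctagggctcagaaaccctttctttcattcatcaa
copy on chromosome 2: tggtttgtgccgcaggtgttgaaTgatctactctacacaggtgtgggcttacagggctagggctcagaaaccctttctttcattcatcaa

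The values are in the authors' TPM, which is not divided by gene length and is scaled apart for the 21-nt and 22-nt reads. The value of each es3 and es3dd library was recovered from the group means for all 122 members. A read was worth 0.6934 to 0.9660 TPM at 21 nt and 0.7583 to 0.9457 TPM at 22 nt, so values near 1 rest on 1 or 2 reads. The scales behind these steps ran from 1035000 to 1442000 reads at 21 nt and from 1057000 to 1319000 reads at 22 nt. Small RNAs from leaf genes were present in all 3 groups, with authors' means for RBCS1A of 245.1, 198.4 and 652.0 TPM at 21 nt in es3, es3dd and Col, while the root genes PHT1;1 and IRT1 were listed at 0 to 0.687 TPM. At 21 nt the root genes SHR and SCR had 93.7 and 51.4 TPM in es3, 2.5 and 1.17 TPM in es3dd and 4.38 and 6.99 TPM in Col. These are small RNAs, so they check neither the tissue label nor the mutated genes as transcripts would. At SKI2 the authors' 21-nt means were 3.53, 0.233 and 0.328 TPM in es3, es3dd and Col.

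Members gave a small share of the small RNAs, larger at 22 nt than at 21 nt. Summed over the 122 members, the 21-nt signal was 1075, 987, 1032 and 1029 TPM in the 4 es3 libraries and 1490, 1521, 1661 and 1647 TPM in the 4 es3dd libraries, and the authors' Col means summed to 2403 TPM. The es3 and es3dd libraries did not overlap. At 22 nt the sums were 2073, 1966, 2056 and 2131 TPM in es3 and 1909, 2118, 2037 and 2112 TPM in es3dd, which overlapped, against 2884 TPM for the Col means. By the authors' means, members held 0.196%, 0.208% and 0.395% of the summed 21-nt signal in es3, es3dd and Col, and 0.911%, 0.947% and 1.22% of the 22-nt signal. Without ATMG00280 the Col share was 0.308% at 21 nt.

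A few members carried much of this signal. The 10 highest of the 122 held 40.5% of the members' 21-nt sum in es3, 46.3% in es3dd and 58.5% in Col, and 35.2%, 41.6% and 51.3% at 22 nt. ATMG00280 was the highest at 21 nt in all 3 groups, followed by ATMG00270, which has no product name here. In Col, ATMG00280 alone averaged 527.6 TPM at 21 nt and 518.0 TPM at 22 nt in the authors' table. In es3 at 22 nt the highest member was rpl2, with a mean of 99.4 TPM. The median member had 3.61, 5.79 and 6.15 TPM at 21 nt and 8.21, 7.22 and 8.49 TPM at 22 nt in es3, es3dd and Col. Next to the members described below, ATMG00520 (no product name) averaged 43.4 ± 5.27 TPM at 21 nt and 72.9 ± 6.36 TPM at 22 nt in es3 (SD, n = 4 libraries). The 2 members ATMG00050 and ATMG00320 were listed at 0 in all 6 mean columns.

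Per kilobase of coding sequence, a scale that could be computed for 14 members matched to a RefSeq gene, the short gene atp9 (membrane ring subunit of ATP synthase) was far above the rest. At 21 nt it stood at 137.2, 215.4 and 291.1 TPM per kb in es3, es3dd and Col, against 45.8, 58.4 and 92.0 for cox3 (subunit of cytochrome c oxidase) and 35.4, 36.7 and 89.8 for atp1 (catalytic-head subunit alpha of ATP synthase). The lowest in es3 was rps7, a protein of the small ribosomal subunit, at 2.90 TPM per kb. These levels are of small RNAs and have no SD on this scale. The divisor is the RefSeq coding length, 225 bases for atp9, while its copy AT2G07671 is annotated over 776 bases. Over which bases the authors counted each member is not known here. The part of the divisor in this ranking was not tested.

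The comparison of es3 with es3dd asks how far small RNAs over a gene depend on DCL4 and DCL2. At 21 nt, more members fell than rose, while most calls in the whole table were rises. Of 103 members with a mean of at least 1 TPM, 1 rose and 15 fell in es3 relative to es3dd (limma, adjusted p below 0.05 over all tested genes, with a log2 difference of 1 or more in size). Of the 17293 genes tested, 45.8% rose and 7.62% fell. The authors' deposited comparison of es3 and es3dd called 1 higher and 14 lower of 111 members, where 32.3% of 19089 genes were higher and 6.61% lower. The members' median log2 difference on the log2(TPM + 1) scale was -0.36, against 0.98 over all genes tested. Of 79 plastid-encoded genes tested, 0 rose and 68 fell, with a median of -1.58. Of 48 tested nuclear copies of members, 0 rose and 9 fell, with a median of -0.47. A fall at 21 nt was thus not particular to the members. The direction of the members depends on the scale. Relative to the median gene, 0 of the 103 members rose and 66 fell, where 3265 of the 17293 genes rose and 4345 fell. Scaled to MIR loci (genes of microRNA precursors), 67 members rose and 0 fell with a median of 1.32. Of all genes, 14653 rose and 35 fell on that scale. Scaled to plastid-encoded genes, 62 members rose and 0 fell with a median of 1.26, where 14416 genes rose and 42 fell. Those scalings also moved the median of all genes tested to 2.66 and 2.60, and the members' median was below it in both. Values below are on the deposited scale. Of the 43 members named in the text and tested at 21 nt, 34 had the other sign when scaled to MIR loci and 33 when scaled to plastid-encoded genes, so these signs belong to the deposited scale. With a pseudocount of 5, of the calls described below, those of ccmFC, rpl5, rps7, ATMG00370, ATMG00600, ATMG00670, ATMG00770, ATMG01120, ATMG01275 and ATMG01350 were inside the fold threshold, at 0.93 for ccmFC and -0.99 to -0.57 for the others.

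ATMG00280 and ATMG00270, the members with the most 21-nt signal in each group, fell. ATMG00280 had 61.0, 61.9, 59.6 and 60.7 TPM in the es3 libraries and 125.8, 142.7, 158.2 and 182.6 TPM in the es3dd libraries at 21 nt. All es3 libraries lay below all es3dd libraries, and the log2 difference was -1.30 ± 0.12 (SE, adjusted p = 1.69e-09, limma). ATMG00270 had 56.9, 53.2, 66.5 and 56.6 TPM in es3 and 143.5, 141.8, 175.9 and 140.1 TPM in es3dd (log2 difference -1.35 ± 0.12, adjusted p = 7.05e-10, limma). At 22 nt it had 50.0, 54.2, 53.2 and 62.4 TPM in es3 and 97.3, 91.1, 104.3 and 120.9 TPM in es3dd, a log2 difference of -0.90 that stays inside the fold threshold. ATMG00030, another abundant member without a product name, averaged 48.6 ± 6.72 TPM in es3 and 94.3 ± 6.19 TPM in es3dd at 21 nt (SD, n = 4 libraries each), with a log2 difference of -0.95.

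**Figure D1:**
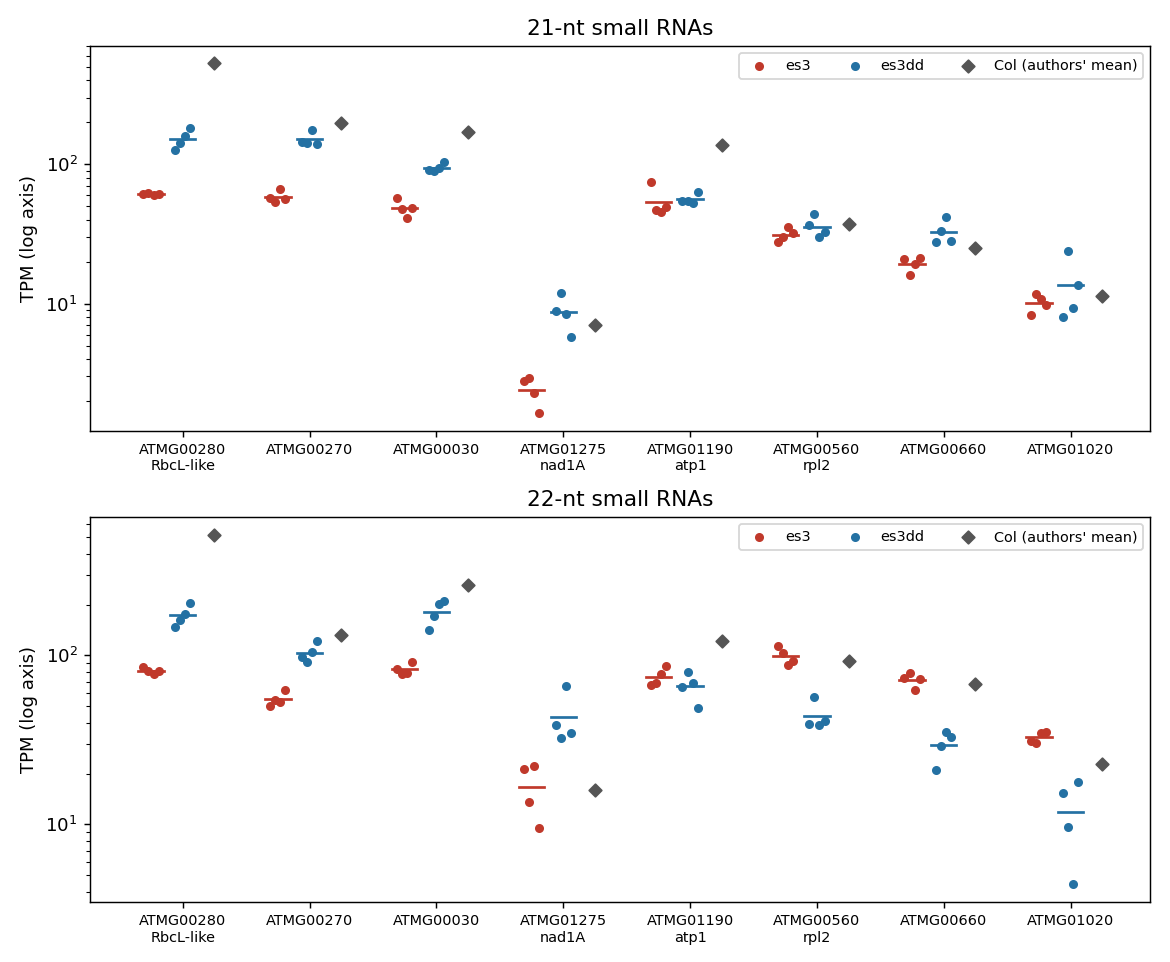
TPM on a log axis of 8 members in the 21-nt (top) and 22-nt (bottom) reads, with 1 point per es3 or es3dd library, a bar at the mean of 4 libraries and a diamond for the authors' Col mean. ATMG00280 and ATMG00270 lie lower in es3 than in es3dd in both panels, while rpl2, ATMG00660 and ATMG01020 lie higher in es3 in the 22-nt panel only.

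Genes of the respiratory chain and ATP synthase are described singly, and no test compared them with each other. Of 3 members placed in complex I, which feeds electrons from NADH into the chain, ATMG01275 (NADH dehydrogenase 1A) fell at 21 nt. It had 2.77, 2.91, 2.29 and 1.64 TPM in es3 and 8.86, 11.9, 8.38 and 5.8 TPM in es3dd. The groups did not overlap, and the log2 difference was -1.49 ± 0.39 (adjusted p = 0.00227, limma). The other two, nad3 (ATMG00990) and ATMG01320 (NADH dehydrogenase 2B), had log2 differences of -0.71 and -0.33 and did not pass the test. Neither did cob (cytochrome b of complex III) at 0.33 and cox3 at -0.35. The 4 ATP synthase genes with a role group here had 0 calls. Their log2 differences were -0.08 for atp1, 0.26 for atp8, -0.65 for atp9 and -0.79 for atp6-1.

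Of 5 genes of ribosomal proteins, 2 fell at 21 nt. For rps7 (ATMG01270) the es3 libraries had 0.693, 2.91, 0.764 and 0.820 TPM and the es3dd libraries 6.20, 4.57, 6.51 and 5.8 TPM. This is the largest fall among the members tested, -1.65 ± 0.44 (adjusted p = 0.00271, limma), and it rests on single reads in 3 of the es3 libraries. For rpl5, a protein of the large subunit, es3 had 2.08, 1.46, 3.06 and 4.10 TPM and es3dd 5.32, 7.32, 6.51 and 6.76 TPM (-1.07 ± 0.40, adjusted p = 0.0253, limma). That call was lost without es3 library 1 or 2 or es3dd library 2, at -1.02 to -0.90, and in the authors' deposited comparison. The log2 differences of rpl2 (-0.18), rps4 (-0.20) and rps12 (-0.91) did not pass.

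The 1 member that rose at 21 nt belongs to cytochrome c maturation, the attachment of haem to cytochrome c. ccmFC (ATMG00180), a part of the haem ligation machinery, had 26.4, 18.9, 22.9 and 18.9 TPM in es3 and 8.86, 7.32, 11.2 and 8.69 TPM in es3dd. Every es3 library was above every es3dd library, and the log2 difference was 1.19 ± 0.28 (adjusted p = 8.54e-04, limma). The call was lost relative to the median gene (0.24) and with quantile normalization (0.53). At 22 nt its libraries overlapped, with means of 23.6 ± 3.19 TPM in es3 and 17.9 ± 5.63 TPM in es3dd (SD, n = 4 libraries each). The other two genes of this group, ccmC and ccmFN2, had 21-nt log2 differences of 0.03 and -0.52 and no call.

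Among frames that resemble other genes, ATMG01090 and ATMG00370 also fell at 21 nt. ATMG01090, an ATP synthase 9-like frame, had 27, 13.1, 26.8 and 18 TPM in es3 and 53.2, 71.3, 48.4 and 58.0 TPM in es3dd (-1.44 ± 0.22, adjusted p = 6.06e-06, limma). ATMG00370, a frame like the plastid gene ycf1, averaged 2.60 ± 1.84 TPM in es3 and 7.93 ± 3.46 TPM in es3dd (SD, n = 4 libraries each), with a log2 difference of -1.39 and libraries that overlapped. The frames like cytochrome b (ATMG00590) and cox2 (ATMG01280) had log2 differences of 0.60 and -0.22 and no call. ATMG01110, which resembles the RNA polymerase of a mitovirus, a virus that replicates in mitochondria, averaged 19 TPM in es3 and 26.4 TPM in es3dd and was not called.

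The remaining falls at 21 nt were in members without a product name. ATMG01310 had 21.5, 12.4, 5.35 and 16.4 TPM in es3 and 39.9, 32.9, 46.5 and 31.9 TPM in es3dd (-1.51 ± 0.30, adjusted p = 1.47e-04, limma). The others were ATMG00600, ATMG00670, ATMG00740, ATMG00770, ATMG00810, ATMG01120 and ATMG01350, with log2 differences between -1.48 in ATMG01120 and -1.12 in ATMG00770. The call of ATMG00670 (-1.15) was lost without es3 library 2 or es3dd library 3, at -0.98 and -0.91. That of ATMG01350 (-1.21) was lost without es3 library 1 or 2 or es3dd library 1 or 2, at -1.10 to -0.99.

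At 22 nt the members were closer to the other genes. Of 112 tested, 6 rose and 4 fell in es3 relative to es3dd, where 15.1% of the 14598 genes tested rose and 4.26% fell. The authors' deposited comparison called 6 higher and 3 lower of 114 members, where 10.9% of 14139 genes were higher and 3.78% lower. The median log2 difference was 0.15 over members and 0.30 over all genes. Of 77 plastid-encoded genes tested, 0 rose and 52 fell, with a median of -1.24. Of 50 tested nuclear copies of members, 1 rose and 1 fell, with a median of 0.08. Here too the split depends on the scale, with 1 higher and 10 lower relative to the median gene and 88 higher and 0 lower when scaled to MIR loci. Of the 14598 genes, 1214 were higher and 1581 lower relative to the median gene. When scaled to MIR loci, 11306 genes were higher and 28 lower. Relative to the median gene the rises of rpl2 (0.74), ATMG00660 (0.85), ATMG00680 (0.94), ATMG00630 (0.68) and ATMG01300 (0.60) were inside the fold threshold.

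Among the named genes, rpl2 rose. Its es3 libraries had 113.7, 103.4, 87.8 and 92.7 TPM and its es3dd libraries 39.4, 56.9, 38.9 and 40.9 TPM, with no overlap (log2 difference 1.17 ± 0.14, adjusted p = 1.04e-10, limma). In the authors' table the Col mean was 93.1 TPM, and the log2 fold change of es3 over Col was 0.09 with an adjusted p of 0.767. The other members that rose have no product name. ATMG00660 had 73.6, 78.8, 62.1 and 72.8 TPM in es3 and 20.9, 28.9, 35.4 and 32.9 TPM in es3dd (1.28 ± 0.17, adjusted p = 2.46e-09, limma). ATMG01020 had 31.1, 30.5, 34.6 and 35.0 TPM in es3 and 15.3, 9.63, 4.42 and 17.8 TPM in es3dd (1.55 ± 0.27, adjusted p = 3.44e-06, limma), the largest rise at 22 nt among the members tested. In both, every es3 library was above every es3dd library. ATMG00680 averaged 19.4 ± 1.88 TPM in es3 and 7.34 ± 3.02 TPM in es3dd (SD, n = 4 libraries each), a log2 difference of 1.37. ATMG00630 (1.11) and ATMG01300 (1.03) lost their calls without single libraries. For ATMG00630 these were es3 libraries 1, 2 and 4 and es3dd libraries 3 and 4 (0.85 to 1.2), and for ATMG01300 es3 libraries 2 and 4 and es3dd library 2 (0.85 to 0.99).

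Of the 4 members that fell at 22 nt, ATMG01275 had 21.2, 13.6, 22.2 and 9.46 TPM in es3 and 38.6, 32.4, 66.3 and 34.7 TPM in es3dd (-1.33 ± 0.24, adjusted p = 4.35e-06, limma). Its Col mean in the authors' table, 15.9 TPM, was near the es3 values. ATMG00030 had 83.4, 78.0, 79.0 and 91.7 TPM in es3 and 140.8, 171.6, 202.5 and 210.7 TPM in es3dd (-1.10 ± 0.11, adjusted p = 4.17e-15, limma). ATMG00280 had 85.7, 80.5, 77.2 and 81.3 TPM in es3 and 148.0, 162.9, 175.0 and 205.3 TPM in es3dd, and its log2 difference of -1.07 ± 0.11 became -0.99 without es3dd library 4, inside the fold threshold. ATMG00260, at 0 to 3.39 TPM in es3 and 0.884 to 7.88 TPM in es3dd, lost its call (-1.51) without es3 library 1, 3 or 4 or es3dd library 1, 2 or 4, at -1.57 to -1.21, and in the authors' deposited comparison.

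The difference between es3 and es3dd was not the same in the size classes. In a limma fit over both classes, the 22-nt log2 difference exceeded the 21-nt one in 12 of 102 members and was below it in 0, where 2.97% of 13614 genes were called higher and 10.3% lower. The median difference of the differences was 0.46 over members and -0.46 over all genes. It was 0.39 over plastid-encoded genes, with 4 higher and 1 lower of 77. Over the nuclear copies of members it was 0.56, with 7 higher and 0 lower of 47, so its sign was not particular to the members. Among the members the largest was in ATMG00660 (1.99 ± 0.28, adjusted p = 1.79e-07, limma). Next came ATMG00810 (1.92), ATMG01020 and ATMG01090 (1.84 each), ATMG00670 (1.80) and ATMG01310 (1.79). Named genes among the 12 were rpl2 (1.35 ± 0.24, adjusted p = 2.43e-05, limma) and atp6-1, the proton channel subunit of ATP synthase (1.43 ± 0.44, adjusted p = 0.0203, limma). For atp6-1 the 21-nt means were 9.39 ± 3.44 TPM in es3 and 17.2 ± 6.63 TPM in es3dd, and the 22-nt means 18 ± 3.94 and 11.5 ± 3.82 TPM in es3 and es3dd (SD, n = 4 libraries each). The fit treats 21-nt and 22-nt values as separate libraries, since they could not be matched, and the classes are scaled apart. Scaled to plastid-encoded genes within each class, 6 members were higher and 2 lower. The share of all genes called on that scale is not given here, so these counts have no background.

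**Figure D2:**
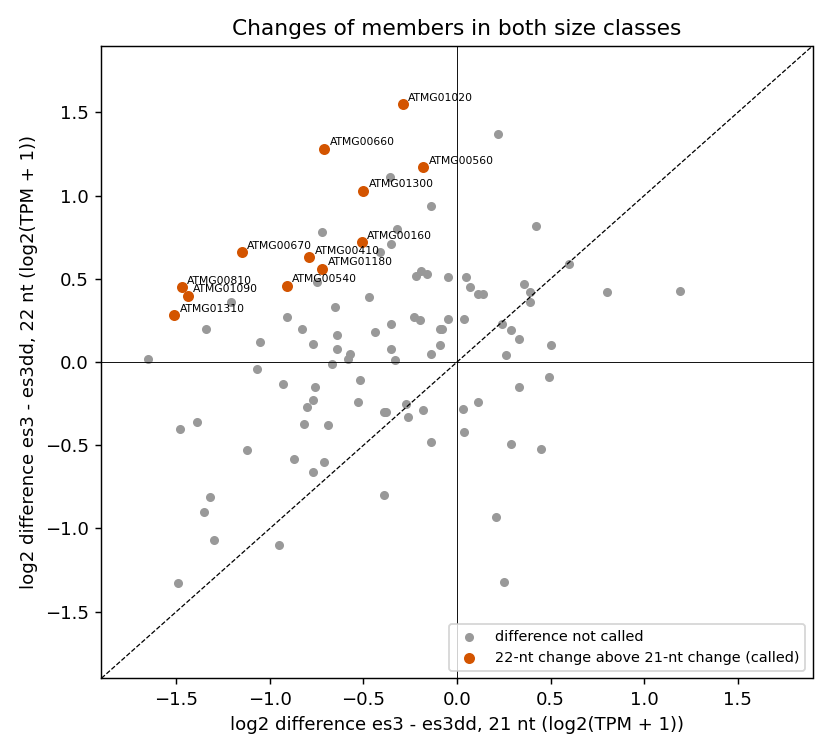
Log2 difference of es3 minus es3dd on the log2(TPM + 1) scale at 21 nt (x axis) and 22 nt (y axis) for 102 members, with the line of equal change dashed and the 12 members called for the difference between classes in orange with their identifiers. The orange points lie above the line, with 22-nt differences above 0 and 21-nt differences below 0.

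The comparison of es3 with Col sets a genotype that lost both decay routes against the wild type. It is known only from the authors' deposited table. Tissue, age, growth and sequencing of the Col plants are not given here. Genotype and a difference between experiments therefore cannot be told apart in it. The comparison with Col shares the es3 libraries with the comparison above. At 21 nt, 0 of 111 members rose and 26 fell in es3, by the authors' adjusted p below 0.05 and an absolute log2 fold change of at least 1. Of 18061 genes with an adjusted p there, 21.2% rose and 3.89% fell. The members' median log2 fold change was -0.79, against 0.74 over all genes. Of the 88 plastid-encoded genes 84 fell, with a median of -2.35, so the members' median lay between that of the plastid-encoded genes and that of all genes.

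All 4 ATP synthase genes with a role group here fell in es3 relative to Col at 21 nt in the authors' deposited table. Their log2 fold changes were -1.33 for atp1 (adjusted p = 7.39e-15, authors' table; means 54.0 TPM in es3 and 136.9 TPM in Col), -1.73 for atp6-1, -1.68 for atp8 and -1.10 for atp9. In the same table cox3 fell (-1.01, means 36.6 TPM in es3 and 73.4 TPM in Col) and cob did not pass the fold threshold (-0.84). Of the 3 complex I members, ATMG01275 fell (-1.54), and nad3 (-1.30) and ATMG01320 (-0.56) did not pass in the authors' table. Of 5 ribosomal protein genes 1 fell, rps7, with authors' means of 1.30 TPM in es3 and 9.48 TPM in Col and a log2 fold change of -2.88. The 3 cytochrome c maturation genes had 0 calls, with ccmFC at 0.35 in the authors' table. Over all genes with an adjusted p there, 3.89% fell. These signs belong to the deposited scale, on which the plastid-encoded genes had a median of -2.35, below each ATP synthase gene. Scalings to plastid-encoded genes or MIR loci were not run against Col.

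Both frames that resemble plastid genes fell. In the authors' deposited table ATMG00280 averaged 60.8 TPM in es3 and 527.6 TPM in Col (log2 fold change -3.12, adjusted p = 2.84e-129, authors' table). This was the largest fall among the members with an adjusted p. ATMG00370 averaged 2.60 TPM in es3 and 18.2 TPM in Col (-2.80). The copy of ATMG00280, AT2G07732, had authors' means of 147.4, 417.4 and 1214.2 TPM in es3, es3dd and Col and a log2 fold change of -3.04 over Col. The 21-base words of the 2 copies that are also in the plastid genome made up 45.6% in AT2G07732 and 59.9% in AT2G07739, the copy of ATMG00370, and the part of plastid reads in these values was not tested. Among the members without a product name that fell, the authors' log2 fold changes ran from -1.81 in ATMG00030 to -1.03 in ATMG00513, with -1.75 in ATMG00270, -1.34 in ATMG01360, -1.07 in ATMG00060 and -1.05 in ATMG00090.

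At 22 nt fewer members differed from Col in the authors' deposited table. Of 116, 1 rose and 5 fell, where 7.85% of 14640 genes rose and 3.96% fell, and the median was 0.03 over members and 0.19 over all genes. The 5 were ATMG00280 (-2.67), ATMG00030 (-1.65), ATMG00270 (-1.26), atp8 (-1.20) and ATMG00570 (-1.11). The 1 that rose, ATMG00690, averaged 32.8 TPM in es3 and 16.2 TPM in Col (adjusted p = 0.00793, authors' table) and stood at the fold threshold. Relative to the median of all genes in that table, 0 members rose.

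**Figure D3:**
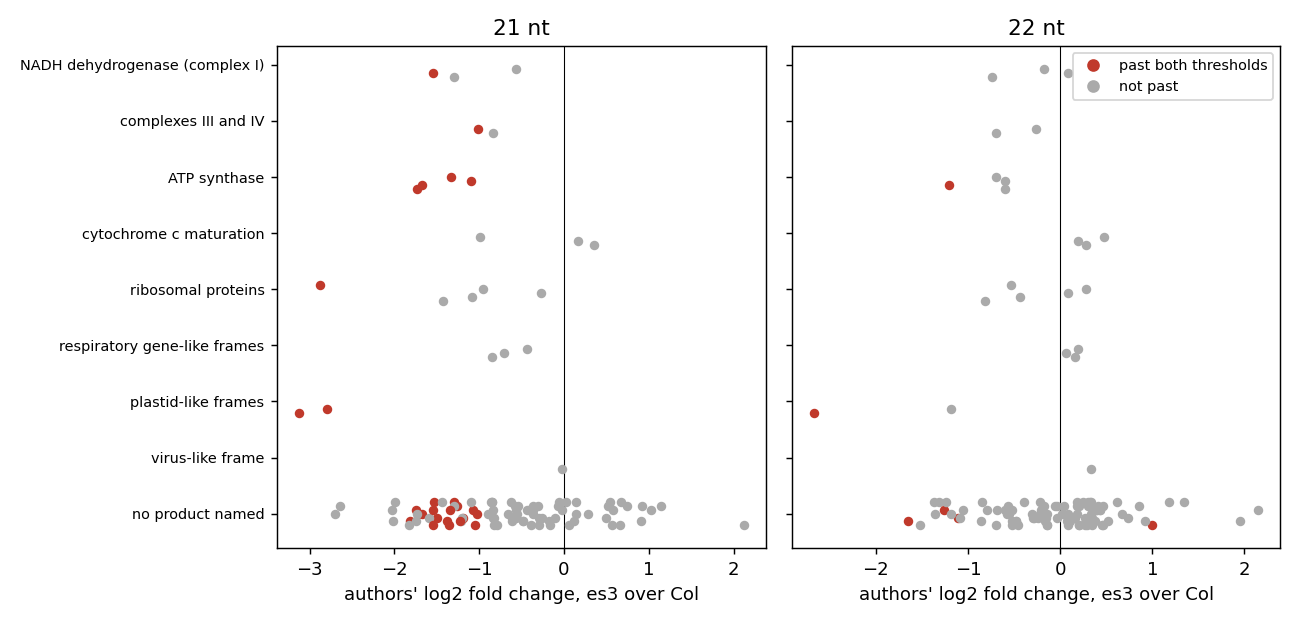
The authors' log2 fold change of es3 over Col at 21 nt (left) and 22 nt (right), 1 point per member with an adjusted p, by role group (rows), red where it passes both thresholds. At 21 nt all 4 genes in the ATP synthase row and both plastid-like frames are red and lie left of 0. At 22 nt 6 points are red.

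The balance of 22-nt over 21-nt values, from the authors' means, was above 1 in most members. It could be computed for members with at least 1 TPM in both classes. The median ratio was 2.01 in es3 (95 members, 91 above 1), 1.51 in es3dd (103 members, 73 above 1) and 1.43 in Col (99 members, 72 above 1). Over nuclear genes the medians were 0.631, 1.2 and 1.12, and over plastid-encoded genes 0.999, 0.781 and 0.765, in es3, es3dd and Col. Because each class has its own scale, a ratio shows the balance within the deposited TPM and not of reads. The highest ratio in es3 was 6.90 in ATMG01275, which also had 4.93 in es3dd, the highest there, and 2.28 in Col. ATMG00660 stood at 3.72, 0.906 and 2.71, and rpl2 at 3.19, 1.23 and 2.48, in es3, es3dd and Col. cob was near balance in es3 and Col, at 1.19 and 1.07, and stood at 1.63 in es3dd.

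**Figure D4:**
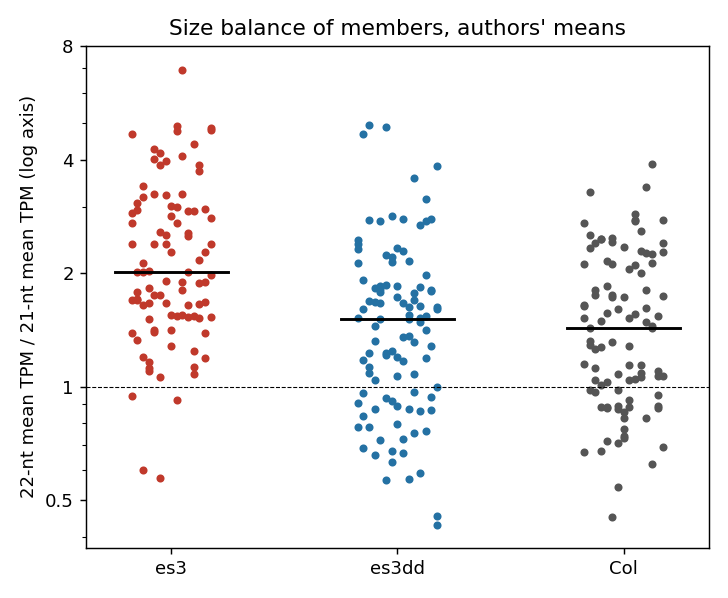
Ratio of the authors' 22-nt to 21-nt mean TPM (log axis) for each member with at least 1 TPM in both classes, by genotype, with the median as a black bar and a dashed line at 1. The medians are 2.01 in es3, 1.51 in es3dd and 1.43 in Col, and the es3 points lie mostly above 1.

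Members and their nuclear copies had related values, but some pairs differed widely. In the 55 pairs, Spearman's rho between the authors' es3 means of member and copy was 0.68 at 21 nt and 0.69 at 22 nt, a description over pairs that can share reads. Of the pairs, 42 lay within 1 log2 unit of each other at 21 nt on the log2(TPM + 1) scale. Values were equal in all 6 mean columns (relative tolerance 1e-09) in 3 pairs, ATMG00260 with AT2G07799, ATMG00540 with AT2G07713 and ATMG01310 with AT2G07691. ATMG01310, one of the members that fell at 21 nt, thus has the same numbers on both rows. At 21 nt in es3 the copy was higher in 37 of the 55 pairs and the member in 13. ATMG00470 had 0.7554 TPM there and its copy AT2G07706, annotated over 4640 bases, 23.83 TPM. ATMG01220 had 2.406 TPM and its copy AT2G07798, annotated over 3484 bases, 20.23 TPM. The values are not divided by length, and the part of annotated length in these gaps was not tested. For rpl2 the authors' es3 means at 22 nt were 99.4 TPM for the member and 156.3 TPM for AT2G07715. The other way round, cox3 had 36.58 TPM and its copy AT2G07687 23.18 TPM in es3 at 21 nt, and ATMG01100 had 10.21 TPM and its copy AT2G07812 0.1734 TPM. ccmFC, which rose, had authors' 21-nt means of 21.77 TPM in es3 and 9.009 TPM in es3dd, while its copy AT2G07815 had 3.656 TPM in es3 and 4.634 TPM in es3dd. Of the 69 members without an annotated copy, 57 were tested against es3dd at 21 nt, with 0 higher, 7 lower and a median of -0.35, near the -0.39 of the 46 tested members with a copy.

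**Figure D5:**
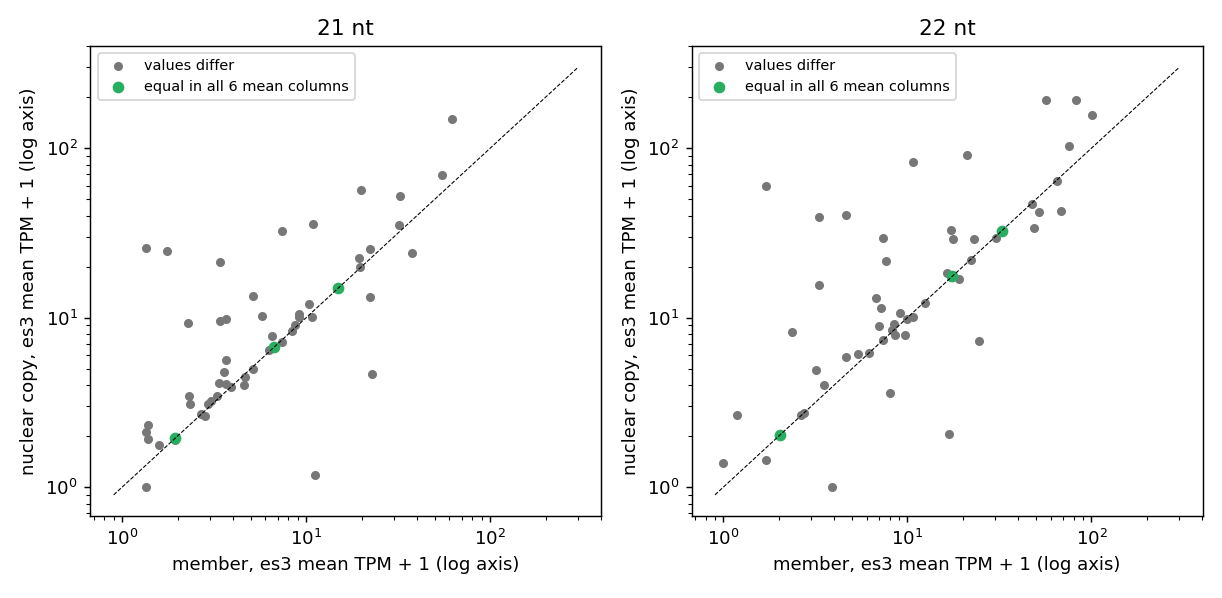
Authors' es3 mean TPM + 1 of the copy on chromosome 2 (y, log axis) against that of the member (x, log axis) for 55 pairs at 21 nt (left) and 22 nt (right), with the line of equality dashed. The 3 pairs equal in all 6 mean columns are green and lie on the line, and most of the other points lie near it.

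Nuclear genes for the same respiratory machinery were counted beside the members. Of 18 nuclear genes for respiration and its assembly, 8 rose and 0 fell at 21 nt in es3 relative to es3dd, with a median log2 difference of 0.67, where 45.8% of all genes tested rose and their median was 0.98. At 22 nt 0 of 17 were called (limma), where 15.1% of all genes rose and 4.26% fell. These counts set the list apart from other genes in no way that was tested. SDH1-1, the flavoprotein subunit of complex II, rose most (1.77, adjusted p = 0.00464, limma). The genes AT5G08670, AT5G08680 and AT5G08690, which encode the beta subunit of ATP synthase, rose by 1.22, 1.06 and 1.17 on the log2 scale, and as near-identical copies may share reads. Against Col, the authors' deposited table called 0 higher and 1 lower at 21 nt, EMB1467, at the fold threshold, and 0 higher and 3 lower at 22 nt (ATP3 at -1.37, EMB1467 at -1.43 and CYTC-2 at -4.02). Over all genes there, 21.2% were higher and 3.89% lower at 21 nt, and 7.85% and 3.96% at 22 nt.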

How the data were processed

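The 8 libraries hold small RNAs of aerial parts, 4 of es3 and 4 of es3dd. Per the submitters' processing notes, Bowtie 1.2.2, SAMtools 1.9, DESeq2 (no version) and the build TAIR10 were used, and their roles are not given. The deposited table holds the authors' mean TPM (so headed, but not divided by gene length) per group and size class. It also holds the authors' log2 fold changes (es3 over Col and es3 over es3dd) with the authors' p-values and adjusted p-values. Other per-sample columns not used numbered 0. Library values were recovered from the means: each mean of up to 1500 reads was matched to whole reads in 4 libraries (relative tolerance 5e-15). All genes tried had a single match (25216 and 23737 in es3, 21557 and 21832 in es3dd, at 21 and 22 nt), 0 of as many random values matched, and 100% of simulated means were recovered. Recovered libraries are numbered by scale, not by label. Nothing more is known of them than that they are 4 samples of a group, and p-values measure the spread between these. limma 3.58.1 (R 4.3.3, trend) was run on log2(TPM + 1) for genes with a mean of at least 1, with Benjamini-Hochberg adjustment over all genes kept. It was tested on simulated data with a fixed spread, in which only genes with a mean of at least 5 TPM were changed. In each size class, 100 of 100 genes changed by a fold of 4 were called. Of 100 changed by a fold of 2, 35 were called. False calls numbered 4 at 21 nt and 10 at 22 nt. These rates do not cover members below 5 TPM. Count-based tools were not used for the main fit, as the deposited values are not counts. The fit over both size classes was added after results had been seen. Alternatives were other pseudocounts, filters and scalings, voom weights on the recovered reads and leaving out each library. Copies and 21-base words come from RefSeq TAIR10.1. Single members named are those called, the 10 highest in es3 per class and the 5 largest and smallest called changes against Col. Respiratory, maturation and ribosomal genes with a role group here are also all named. Members and lists were chosen with earlier results of these data known.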

Additional observations from a re-analysis of the deposited data

Results flagged for a closer look

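Among 174 groups of 4 libraries of the named members, 11 had 1 library far from the other 3, where chance gives about 1 in 20. At 21 nt in es3 a single library stood high for cob (21.5 TPM), ATMG00600 (4.59 TPM), ccmC (6.88 TPM), atp1 (74.9 TPM) and rps7 (2.91 TPM), and 1 stood low for ATMG00670 (9.47 TPM). At 21 nt in es3dd a single library stood high for ATMG00270 (175.9 TPM) and atp1 (62.8 TPM). At 22 nt a single library stood high for rpl5 (10.2 TPM) and ATMG00670 (50.0 TPM) in es3 and for rpl2 (56.9 TPM) in es3dd.

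In 12 members the log2 difference of es3 over es3dd at 22 nt exceeded that at 21 nt by a test of the difference itself (limma interaction term). The differences of the differences were 1.23 in ATMG00160, 1.43 in atp6-1, 1.37 in ATMG00540, 1.35 in rpl2, 1.99 in ATMG00660, 1.80 in ATMG00670, 1.92 in ATMG00810, 1.84 in ATMG01020, 1.84 in ATMG01090, 1.27 in ATMG01180, 1.54 in ATMG01300 and 1.79 in ATMG01310. ATMG00540 and ATMG01310 have the same values as a row on chromosome 2, so these differences cannot be told apart from those of the copy.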

How the results depend on the processing

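No paired analysis was possible because the library numbers used here come from the libraries' scales and not from a label. Results rest on 1 to a few reads for members near 1 TPM, and the counts below do not say which members were called. At 21 nt, es3 against es3dd, a pseudocount of 5 gave 0 higher and 6 lower members with a median of -0.21. A mean of at least 10 TPM gave 8 lower with a median of -0.48 over 36 members. Over all genes these gave 3209 higher and 429 lower of 17293, and 1497 higher and 513 lower of 3309. Median-centring gave 0 higher and 66 lower members (median -1.30), quantile normalization 0 and 66 (-1.18), plastid scaling 62 and 0 (1.26) and MIR scaling 67 and 0 (1.32). Over the 17293 genes these scalings gave 3265 and 4345, 3239 and 4331, 14416 and 42, and 14653 and 35, in that order. The authors' deposited comparison had a median of -0.54. Leaving out each library gave 1 to 2 higher and 14 to 16 lower, with medians of -0.41 to -0.35. Without members that have a named copy, chosen after seeing the data, 0 were higher and 7 lower. At 22 nt, median-centring gave 1 higher and 10 lower (-0.28), quantile normalization 8 lower (-0.07), plastid scaling 76 and 0 (1.39) and MIR scaling 88 and 0 (1.55). Over the 14598 genes these scalings gave 1214 and 1581, 1225 and 1217, 10311 and 36, and 11306 and 28, in that order. Without members that have a named copy 1 was lower, and leaving out each library gave 4 to 7 higher and 3 to 4 lower, with medians of 0.10 to 0.17. Against Col in the authors' table, leaving out members with a copy gave 17 lower at 21 nt and 3 at 22 nt. Adjusted p alone gave 9 lower at 22 nt, and changes relative to the median of all genes gave 0 higher. The difference between size classes had a median of 0.72 on centred libraries, and with plastid scaling 6 higher, 2 lower and a median of 0.06. Leaving out each library gave 8 to 14 higher and 0 lower there, with medians of 0.44 to 0.52. The shares of all genes called under these settings of the size-class difference are not given here. A minimum of 10 TPM gave 22-nt to 21-nt ratios of 1.76 in es3, 1.2 in es3dd and 1.26 in Col. The cause of these shifts was not tested.

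Under the scalings to plastid-encoded genes and MIR loci, 33 and 34 of 43 named members had the other sign at 21 nt, and 14 and 15 of 44 at 22 nt. With these scalings the median over all genes was 2.60 and 2.66 at 21 nt and 1.54 and 1.70 at 22 nt. Signs without a call on either side also turned in 8 and 18 members on centred libraries and in 8 and 6 with quantile normalization, at 21 and 22 nt, in 2 and 1 in the authors' deposited comparison, in 1 at 21 nt with a pseudocount of 5 and in 1 at 22 nt with voom weights. Relative to the median of all genes they turned in 6 and 7 members against Col, and leaving out each library turned 13 of 344 and 19 of 352 values. The values listed next are the turns in which the main or the alternative value was called. Scaled to plastid-encoded genes, the log2 differences of es3 over es3dd that turned with a call at 21 nt were ATMG00210 0.55, ATMG00270 0.27, ATMG00280 0.32, ATMG00290 1.41, ATMG00370 0.23, ATMG00520 1.39, ATMG00560 1.44, ATMG00600 0.27, ATMG00630 1.26, ATMG00670 0.47, ATMG00730 1.27, ATMG00740 0.30, ATMG00770 0.50, ATMG00810 0.15, ATMG00960 1.1, ATMG01020 1.33, ATMG01090 0.18, ATMG01110 1.17, ATMG01120 0.14, ATMG01190 1.54, ATMG01275 0.12, ATMG01300 1.11, ATMG01310 0.11, ATMG01320 1.29, ATMG01350 0.41 and ATMG01360 1.43. Scaled to plastid-encoded genes, the log2 differences of es3 over es3dd that turned with a call at 22 nt were ATMG00030 0.14, ATMG00210 1.21, ATMG00220 1.09, ATMG00280 0.18 and ATMG00960 1.14. Scaled to MIR loci, the log2 differences of es3 over es3dd that turned with a call at 21 nt were ATMG00210 0.61, ATMG00270 0.33, ATMG00280 0.38, ATMG00290 1.47, ATMG00370 0.29, ATMG00520 1.45, ATMG00560 1.5, ATMG00600 0.34, ATMG00630 1.32, ATMG00670 0.53, ATMG00730 1.33, ATMG00740 0.36, ATMG00770 0.56, ATMG00810 0.21, ATMG00960 1.16, ATMG01020 1.39, ATMG01080 1.03, ATMG01090 0.24, ATMG01110 1.23, ATMG01120 0.20, ATMG01190 1.6, ATMG01270 0.03, ATMG01275 0.18, ATMG01300 1.17, ATMG01310 0.17, ATMG01320 1.35, ATMG01350 0.47 and ATMG01360 1.49. Scaled to MIR loci, the log2 differences of es3 over es3dd that turned with a call at 22 nt were ATMG00030 0.30, ATMG00210 1.37, ATMG00220 1.25, ATMG00280 0.33, ATMG00370 1.04, ATMG00570 1.02, ATMG00900 1.12, ATMG00960 1.29, ATMG01120 1.01, ATMG01275 0.07 and ATMG01360 1.11. Apart from these 2 scalings, the settings that keep all libraries left 1075 values of single members on their side of the threshold, 42 gained a call and 29 lost one. Leaving out each library gave 667, 5 and 24.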
